A study of Homo sapiens with 22 samples.

Results

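AQP1, AQP3, AQP7, AQP9 and AQP11 were the 5 aquaporin genes described here across 22 RNA-seq libraries of RPTEC, human renal proximal tubule epithelial cells immortalized with hTERT. They are 5 of the 36859 genes in the deposited table and 5 of 14 aquaporin genes listed from general knowledge, all 14 of which had a value. They were chosen by their normalized counts in these same 22 libraries, AQP9 for its level in SETD2 knockout cells. Their levels and differences are therefore given as a description, with no p-value. The lists of related genes and markers were also drawn up with earlier results of these data known. Their p-values describe these libraries and are not independent tests. The study asked what the loss of SETD2, a histone H3 lysine methyltransferase often mutated in clear cell renal carcinoma, does to these epithelial cells, with TGF-β as a known inducer of a mesenchymal state.

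The 22 libraries formed 11 groups of 2 replicates. WT was the unedited line in medium with 2% FBS, and WT + TGF-β was the same line after 72 h with 10 ng/ml TGF-β, also in 2% FBS. KO1 and KO2 were each 1 single-cell CRISPR clone with frameshifts in SETD2, kept in 2% FBS. Rescue1 and Rescue2 were single-cell clones of knockout cells that carried FLAG-tagged SETD2 on a lentivirus, grown in regular medium with 10% FBS. A further group, labelled KO2 rescue, was kept in 2% FBS. The remaining groups were WT cells transduced with lentivirus for eGFP (the vector control), SOX2, OCT2 or PRRX1, selected in bulk and grown with 10% FBS. All groups shared the hTERT immortalization, and the knockout and rescue groups each stand for 1 clone. The labels do not say whether replicates were separate cultures, so p-values measure only the spread between these libraries, which may be technical.

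The deposited values were log2 values that were converted back to normalized counts, which totalled 11674491 to 16758645 per library. Depth was estimated at about 7700000 to 18800000 reads by taking the commonest small value of each library as 1 read. It was not measured from the reads. A level of 3 normalized counts per library was taken as the floor that a count of 0 allows, for counting error only. SETD2 itself was at 1852 and 2061 normalized counts in WT, 1046 and 1130 in KO1, and 1050 and 1052 in KO2. Its log2 difference from WT was -0.84 ± 0.07 (SE) in KO1 (limma, adjusted p = 1.31e-07) and -0.89 ± 0.07 in KO2 (adjusted p = 1.26e-07). Rescue1 and Rescue2 held 9764 to 10445. The libraries labelled KO2 rescue held 834 and 820, below KO2 rather than above it (log2 difference -0.34 ± 0.07, limma adjusted p = 0.00382). The RNA thus went against that label, and these libraries are called labelled KO2 rescue throughout. Of the defining genes of the proximal tubule, PAX8 and GGT1 were at 225 or more counts in every library, while SLC22A6, SLC22A8 and HNF4A were listed at 0 in all 22 and LRP2 did not exceed 2.29.

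Aquaporins are membrane channels. The classical members, such as AQP1, pass water, the aquaglyceroporins AQP3, AQP7 and AQP9 pass glycerol and other small solutes as well, and AQP11 is a distant member found mainly on intracellular membranes. In the kidney AQP1 is the main water channel of the proximal tubule, AQP7 lies in its straight part, and AQP3 is best known from the collecting duct. AQP9 is best known from hepatocytes, where it takes up glycerol for glucose synthesis, and from leukocytes.

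The members lie on 4 chromosomes of GRCh38 (GENCODE release 44). AQP9 (ENSG00000103569) is at chr15:58138169-58185911 on the + strand, with 6 exons in its representative transcript. AQP1 (ENSG00000240583) is at chr7:30911853-30925517 (+), with 4 exons. AQP11 (ENSG00000178301) is at chr11:77589391-77610356 (+), with 3 exons. AQP7 (ENSG00000165269) is at chr9:33383179-33402682 (-) with 8 exons, and AQP3 (ENSG00000165272) is near it at chr9:33441156-33447596 (-) with 6 exons.

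RefSeq promoter sequences of GRCh38.p14 matched 4 of the 5 members; AQP11 had no entry. The 250 bases just upstream of the start are printed for AQP9 and AQP1, the members with the widest ranges of level. Capitals mark TATAAA, the core of the TATA box. The first sequence is chr15:58137919-58138168 and the second is chr7:30911603-30911852, both on the + strand and written 5′ to 3′.
AQP9: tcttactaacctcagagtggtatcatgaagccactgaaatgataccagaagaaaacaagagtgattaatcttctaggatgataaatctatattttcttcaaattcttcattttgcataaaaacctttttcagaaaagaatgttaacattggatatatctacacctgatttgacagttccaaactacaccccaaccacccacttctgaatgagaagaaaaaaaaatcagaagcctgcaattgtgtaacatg
AQP1: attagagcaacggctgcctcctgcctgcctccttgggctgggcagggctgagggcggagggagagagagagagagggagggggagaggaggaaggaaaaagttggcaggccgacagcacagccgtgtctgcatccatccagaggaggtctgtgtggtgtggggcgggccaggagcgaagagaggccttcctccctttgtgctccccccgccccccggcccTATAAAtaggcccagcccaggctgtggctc
The AQP9 stretch was poor in G and C, at 33.6% where the median of 27305 promoters was 57.6%, and only 4.13% of promoters were lower. It held 0 CpG dinucleotides, against a median of 10. The AQP1 stretch had 65.2% G and C and 8 CpG. It carried TATAAA from 30 to 25 bases upstream of the start, letters found on either strand in 11.2% of all promoters. Neither stretch matched, on either strand, the POU octamer ATGCAAAT (in 1.67% of promoters), the SOX core CTTTGTT (4.55%) or the homeodomain core TAATTA (4.52%). These were searched because SOX2, OCT2 and PRRX1 are among the transduced factors. The AP-1 site TGAGTCA (4.15%), which stands for none of the transduced factors, was not matched either. A match or its absence describes these letters in this window and nothing about the factors.

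AQP9 was the member with the highest level and the largest differences. It was at 3.61 and 0 normalized counts in WT. In KO1 it was at 665 and 684, and in KO2 at 1004 and 925. Both knockout clones thus held this glycerol channel at 665 counts or more, while WT was at or near the floor. The libraries labelled KO2 rescue held 107 and 113, between the knockouts and every other group. Rescue1 was at 0 and 0, and Rescue2 at 0.838 and 3.03. In all, the 16 libraries outside KO1, KO2 and labelled KO2 rescue ranged from 0 to 11.4 with a median of 2.10, and 4 of them were at 0. The highest of these 16 was a WT + TGF-β library at 11.4, whose replicate was at 0.867.

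The order of AQP9 group means began with KO2 (964 ± 55.9, SD, n = 2), KO1 (674 ± 13.6) and labelled KO2 rescue (110.1 ± 4.61). The libraries of these 3 groups did not overlap with each other or with any other library. The means of the next 8 groups were 6.11 or lower, and each of the groups from WT + TGF-β down to Rescue2, WT and eGFP overlapped the next in the order, so that no order can be read among them. As a ratio of means, KO1 was 373-fold above WT, with a 95% interval of 149.7 to 1407. The interval came from exact Poisson limits on about 4 WT reads, a number estimated in the same way as the depth. KO2 was 534-fold above WT (214 to 2011) and labelled KO2 rescue 60.9-fold (24.4 to 229.5). Against Rescue1, which was at 0, KO2 was at least 321-fold higher and KO1 at least 225-fold, taking 3 counts per library as the floor. These intervals and floors cover counting error only. In bulk RNA, more cells with AQP9 and more AQP9 RNA per cell cannot be told apart.

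**Figure D1:**
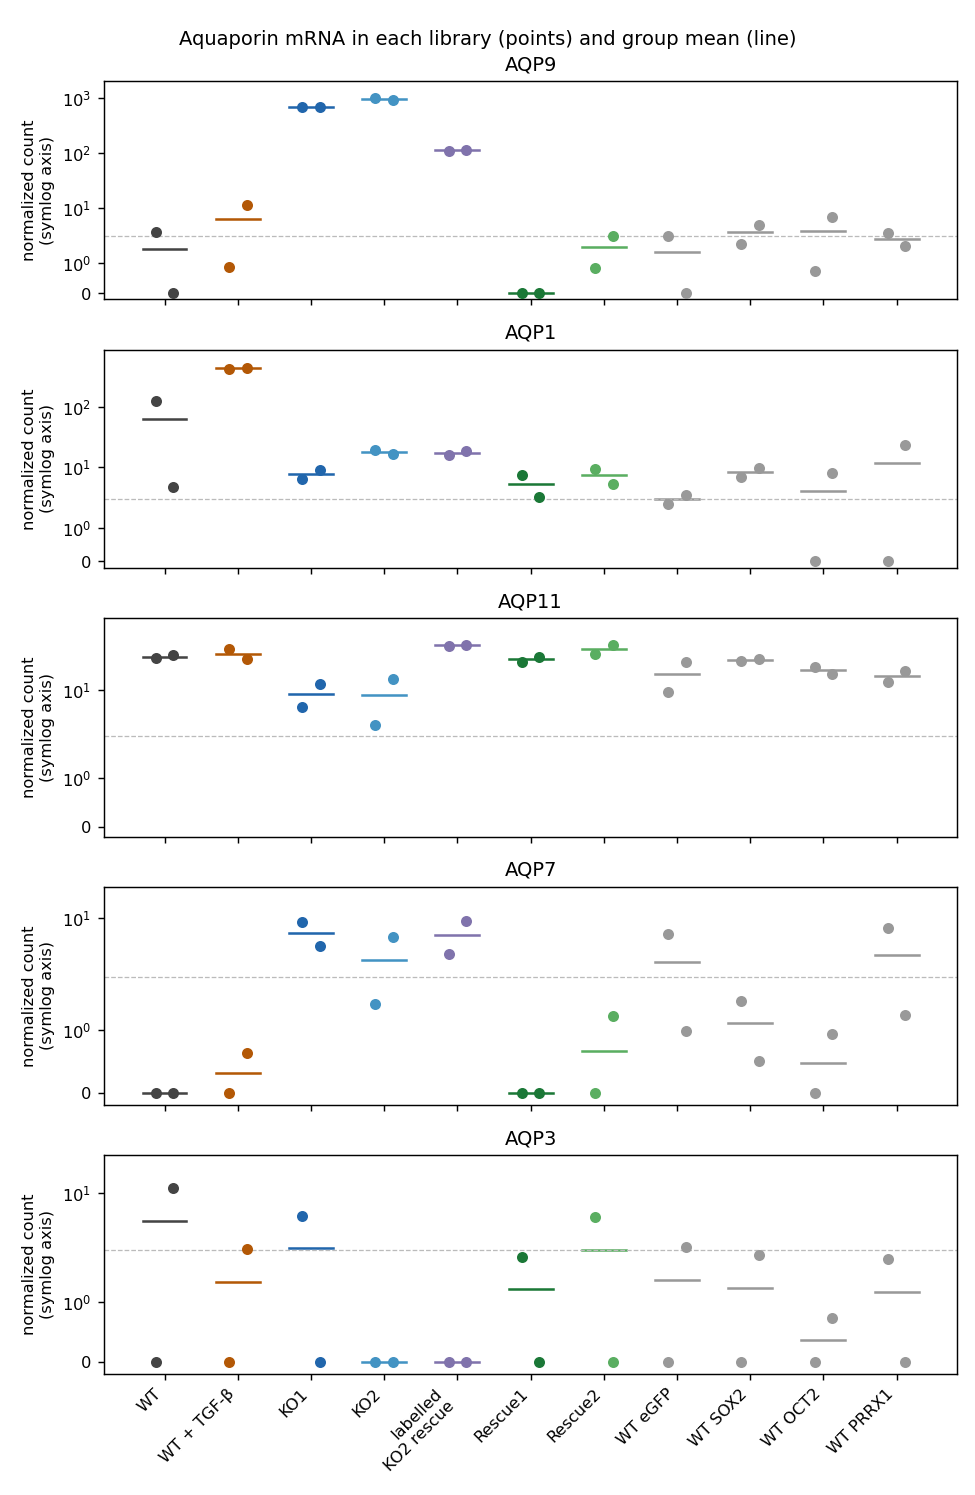
Normalized counts (symlog axis, linear below 1) of the 5 members in the 2 libraries of each of the 11 groups; points are libraries, short lines are group means, and the dashed line marks 3 counts. AQP9 stands at 665 to 1004 in KO1 and KO2 and at 107 and 113 in labelled KO2 rescue, AQP1 at 432 and 448 in WT + TGF-β, and AQP7 and AQP3 stay at or below 11.2 in every library.

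The largest AQP9 differences were those of the knockouts. The call rule asked for a limma adjusted p below 0.05 together with a log2 difference beyond 1 in size. AQP9 met that rule in KO1 and in KO2 against WT, with log2 differences of 8.30 ± 1.002 and 8.81 ± 1.002 (SE). It was the only 1 of the 3 tested members that met it in KO1 against WT, where 25% of the 14585 tested genes did. In KO2 against WT, 2 of 3 members met it, AQP9 and AQP11, against 16.3% of tested genes. Nothing is read from these counts, since the same libraries chose the members. KO1 and KO2 differed by -0.51 ± 1.002, and 0 of 3 members met the rule between them (6.97% of tested genes did). On the scale of ratios AQP9 in KO2 was 1.43 times its level in KO1.

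Re-expression of SETD2 went with AQP9 near the floor. The mean of Rescue1 and Rescue2 differed from KO2 by -9.19 ± 0.87 on the log2 scale, a value that depends on the added count of 1 because Rescue1 was at 0. Here 2 of 3 members met the rule (AQP9 lower, AQP11 higher), beside 17.5% of tested genes. The rescue clones grew with 10% FBS and KO2 with 2%, so rescue and serum cannot be told apart in this difference. Against the eGFP line, which shared their serum, the rescue clones differed in AQP9 by -0.29 ± 0.87, and 0 of 3 members met the rule (13.1% of tested genes). WT in 2% FBS and eGFP in 10% FBS were alike near the floor, with AQP9 between 0 and 3.61 in all 4 libraries and 0 of 3 members called between them (12.7% of tested genes).

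KO2 held 8.76 times the AQP9 level of the libraries labelled KO2 rescue, although SETD2 RNA was no higher in the latter. The log2 difference was -3.12 ± 1.002 and did not meet the rule, while AQP11 did, 1 of 3 members beside 4.17% of tested genes. The SE comes from all 22 libraries, in which AQP9 replicates differed by up to 2.73 on the log2 scale in groups near the floor and by 0.12 or less in KO1, KO2 and labelled KO2 rescue. Fitted on these 4 libraries alone, AQP9 met the rule and AQP11 did not. Leaving out either WT or either WT + TGF-β library also brought AQP9 past it.

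TGF-β did not bring AQP9 to the knockout level. WT + TGF-β was at 0.867 and 11.4, a log2 difference from WT of 1.16 ± 1.002, and 0 of 3 members met the rule (7.84% of tested genes). Without the higher of the pair the difference was -0.20, and without the lower 2.52. The mean of KO1 and KO2 lay above WT + TGF-β by 7.39 ± 0.87, all in 2% FBS. Among these, 3 of 3 tested members met the rule, with AQP9 higher and AQP1 and AQP11 lower in the knockouts, beside 20.2% of tested genes. This comparison and those of each knockout with WT share the knockout libraries.

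Ectopic SOX2, OCT2 and PRRX1, the transcription factors overexpressed in WT cells, were transduced to ask what these factors do on their own, and AQP9 was near the floor in all of these lines. The 8 transduced libraries ranged from 0 to 6.71 with a median of 2.63. SOX2 was at 2.20 and 4.90, OCT2 at 0.716 and 6.71, and PRRX1 at 3.41 and 2.00, where eGFP was at 3.06 and 0. Each of the 3 lines overlapped eGFP. For none of these 3 lines did any member meet the rule, with 0.0206%, 0.0343% and 0.0411% of tested genes called for SOX2, OCT2 and PRRX1.

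AQP9 lies within the span of ALDH1A2, a retinaldehyde dehydrogenase gene on the opposite strand, with which it shares 354 exon bases. ALDH1A2 ranged from 0 to 73.3 normalized counts and was not high where AQP9 was, with means of 30.0 in WT, 26.7 in KO1 and 9.27 in KO2. The kit marked strand, but whether the counting used it is not given in the sources used here. Leukocytes and hepatocytes are the cell types best known for AQP9. The 6 leukocyte markers with a value summed to 0 to 23.6 counts, with 10.5 and 11.4 in KO1, 6.12 and 3.29 in KO2 and 0 in both WT libraries, and FCGR3B was at 0 in all 22 libraries. CD14, the only 1 of them tested, was called higher in KO1 than in WT (2.71 ± 0.70, limma adjusted p = 0.00611) and did not exceed 13.2 in any library. CD14 was also called higher than WT in WT + TGF-β (log2 difference 2.28) and in eGFP (2.80). In KO2 its difference from WT was 0.415 and was not called. Of the 6 hepatocyte markers APOB was at 0 in all libraries and TTR and APOA1 did not exceed 1.23. ALB, albumin, was at 11.7 and 18.0 in KO2 and at 5.46 and 6.52 in labelled KO2 rescue, against 0.829 and 3.97 in WT and 2.68 and 0 in KO1. Its log2 difference of KO2 from WT was 2.37 ± 0.88 (limma, adjusted p = 0.0572), and it was lower in the rescue clones than in KO2 (-3.46 ± 0.76, adjusted p = 0.00247). Serum also differed between the rescue clones and KO2. SERPINA1, which kidney epithelium can also express, was at 1078 to 7442 and was lower in both knockouts (log2 difference -2.09 in KO1 and -1.65 in KO2, limma adjusted p = 2.58e-12 and 6.98e-11).

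Of the endothelial markers, KDR was high in the knockouts, the only 1 of 4 tested that was called in KO1 or KO2 against WT. The summed level of the 5 endothelial markers was 126 to 157 in the 4 knockout libraries, 4.99 and 40.3 in WT, and 27.1 and 30.1 in labelled KO2 rescue. It was also 90.2 and 138 in Rescue1, where AQP9 was at 0 and CDH5 made up 68.7 and 83.8. In the knockouts most of it was KDR, a VEGF receptor, at 103 to 145 in the knockouts and at 0.77 or lower in WT (log2 difference 6.41 in KO1 and 6.68 in KO2, limma adjusted p = 1.36e-05 and 1.46e-05). The defining marker CDH5 was at 0 in all 4 knockout libraries. PECAM1 was at 0 in 19 of the 22 libraries and at 25.1 in KO1 replicate 2, its highest value. TEK was at 0.887 to 7.12 in the knockouts and at 0 in both WT libraries, and VWF was at 2.25 to 21.7 in the knockouts and at 4.22 and 22.3 in WT. The part of the leukocyte, hepatocyte and endothelial markers in the AQP9 result was not tested.

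AQP1, the constitutive water channel of the proximal tubule, was high in WT + TGF-β. It was at 432 and 448 normalized counts there. In WT it was at 124 in replicate 1 and 4.77 in replicate 2, so the untreated replicates differed 25.9-fold. The other 18 libraries ranged from 0 to 23.8 with a median of 7.78. WT + TGF-β therefore lay above every other library, while WT replicate 2 lay within the range of the rest.

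The knockouts were within the range of these 18 libraries for AQP1, with 6.39 and 9.20 in KO1 and 19.1 and 16.6 in KO2. Labelled KO2 rescue was at 16.2 and 18.8, much like KO2. Rescue1 was at 7.39 and 3.23, and Rescue2 at 9.41 and 5.39. Neither the knockouts nor the rescue clones came near the TGF-β level. Among the transduced lines eGFP was at 2.48 and 3.45, SOX2 at 7.001 and 9.69, OCT2 at 0 and 8.18, and PRRX1 at 0 and 23.8. The PRRX1 replicates thus spanned the whole range of these 18 libraries. By group mean KO2 came next after WT + TGF-β and WT, and from WT downwards every group overlapped the next.

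The AQP1 difference of WT + TGF-β from WT was 4.04 ± 1.43 on the log2 scale and did not meet the rule. It depended on the WT replicate: WT + TGF-β was 3.56 times WT replicate 1 and 92.3 times WT replicate 2. Without WT replicate 1 the log2 difference was 6.26 and met the rule, and without replicate 2 it was 1.82. Leaving out either PRRX1 library, which narrows the spread between replicates, also brought it past the rule. The contrast of both knockouts with WT + TGF-β, which uses no WT library, was -5.11 ± 1.24 and met the rule with any 1 library left out.

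Differences of AQP1 from WT turned with the WT replicate. KO1 differed from WT by -1.63 ± 1.43, with -3.84 without WT replicate 2 and 0.59 without WT replicate 1. KO2 differed by -0.51 ± 1.43, with -2.73 and 1.71. No direction can be given for AQP1 between knockouts and WT. The eGFP line differed from WT by -2.77 ± 1.43, and without WT replicate 2 it differed by -4.99 and met the rule. The WT replicates also lay apart more widely than other pairs, with a median absolute log2 difference between replicates of 0.181, the highest of the 11 groups (lowest 0.0644). Of 1596 genes more than 1 log2 unit higher in WT + TGF-β, 952 (59.7%) were higher in WT replicate 1 than in replicate 2, and of 1714 genes more than 1 lower, 1123 (65.5%) were lower in replicate 1. Among all tested genes 47.6% were higher in replicate 1. The part of this in the AQP1 gap was not tested.

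AQP1 shares 910 exon bases with a same-strand protein-coding gene model without a symbol, ENSG00000250424, which reached 4.85 counts at most. Reads of the 2 could be split between them, so the lowest AQP1 values are uncertain.

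**Figure D2:**
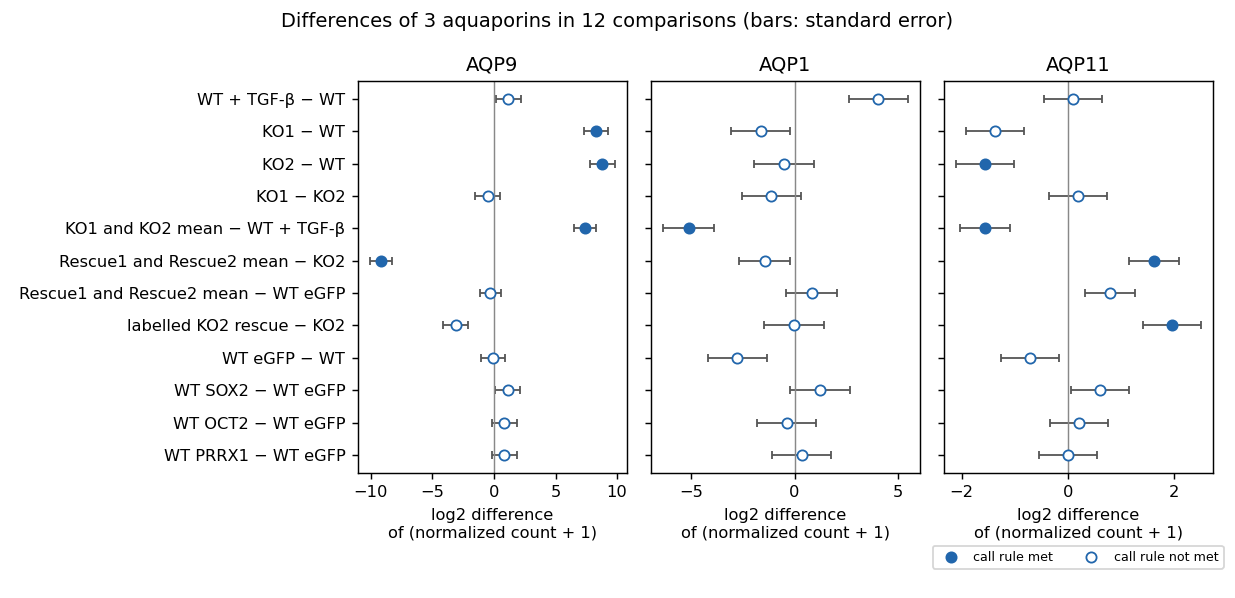
Log2 differences of log2(normalized count + 1) for AQP9, AQP1 and AQP11 in the 12 comparisons, with bars of 1 standard error from the fit on all 22 libraries; filled points met the call rule and open points did not. AQP9 reaches 8.30 and 8.81 in KO1 and KO2 against WT and -9.19 in rescue against KO2, the AQP1 bars are widest (SE up to 1.43), and AQP11 moves within 2 log2 units.

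AQP11, an intracellular member that is needed for the integrity of proximal tubule cells in mice, was the only member above 0 in all 22 libraries. It was at 23.2 and 25.2 normalized counts in WT and at 29.3 and 23.0 in WT + TGF-β. In the knockouts it was at 6.50 and 11.7 (KO1) and at 4.06 and 13.4 (KO2). Labelled KO2 rescue was at 31.9 and 32.9, Rescue1 at 21.2 and 24.0, and Rescue2 at 25.6 and 33.1. All 4 knockout libraries, at 4.06 to 13.4, lay below all 10 libraries of WT, WT + TGF-β, labelled KO2 rescue and the rescue clones, at 21.2 to 33.1. The 8 transduced WT libraries, at 9.54 to 22.9, overlapped both sets. At the low end eGFP replicate 1 at 9.54 and PRRX1 replicate 1 at 12.4 were within the knockout range, and at the high end eGFP replicate 2 and both SOX2 libraries, the latter at 21.7 and 22.9, were within that of the 10. By group mean the order ran from labelled KO2 rescue (32.4 ± 0.748) to KO1 (9.09 ± 3.67) and KO2 (8.75 ± 6.63), and neighbours overlapped except SOX2 with OCT2 and PRRX1 with KO1.

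The AQP11 differences were smaller than those of AQP9. Against WT they were -1.37 ± 0.55 in KO1 and -1.56 ± 0.55 in KO2, and only that in KO2 met the rule. That call stood near the threshold: it held in 5 of the 22 fits with 1 library left out, and in KO1 against WT it was met in 2 of 22, without either KO2 library. The mean of the knockouts differed from WT + TGF-β by -1.56 ± 0.47, which met the rule except without KO2 replicate 1 or either WT + TGF-β library and when the other groups were kept out of the fit. Rescue1 and Rescue2 lay above KO2 by 1.64 ± 0.47 and met the rule except without KO2 replicate 1, the lowest AQP11 library. Labelled KO2 rescue lay above KO2 by 1.97 ± 0.55, a call lost without KO2 replicate 1 or either labelled KO2 rescue library. TGF-β differed from WT by 0.10 ± 0.55, and the eGFP line by -0.72 ± 0.55. At levels of 4 to 33 counts, changes of this size rest on few reads.

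AQP11 lies within the span of CLNS1A, which encodes the methylosome subunit pICln on the opposite strand, but shares 0 exon bases with it. CLNS1A was far higher, at 771 to 1689 counts. It was also lowest in the knockouts, with means of 835 in KO1 and 1157 in KO2 against 1571 in WT, and its part in the AQP11 result was not tested.

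AQP7 and AQP3, the other aquaglyceroporins of the set, were too low to be tested, since the filter asked for 10 counts in 2 libraries. AQP7 reached 9.44 at most. It was at 9.10 and 5.66 in KO1, at 1.71 and 6.68 in KO2, and at 4.77 and 9.44 in labelled KO2 rescue. In WT, WT + TGF-β and the rescue clones, 6 of 8 libraries were at 0 and the highest was 1.34. The knockout and labelled KO2 rescue libraries (1.71 to 9.44) did not overlap with those 8, but they did with the transduced WT lines, which ranged from 0 to 8.06. Among the latter eGFP was at 7.16 and 0.994, PRRX1 at 8.06 and 1.37, SOX2 at 1.80 and 0.510, and OCT2 at 0 and 0.943. AQP7 has near-identical copies, of which AQP7B reached 2.35 and AQP7P1 2.08 while AQP7P2, AQP7P3, AQP7P4 and AQP7P5 were listed at 0, so its counts are uncertain. With no filter on low values AQP7 met the rule in KO1 against WT and in both knockouts against WT + TGF-β.

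AQP3 was at 0 in 13 of 22 libraries. Its highest value was 11.2 in WT replicate 2, whose partner was at 0, and KO1 was at 6.21 and 0. In Rescue2 it was at 6.03 and 0, and each of the remaining libraries was at 3.17 or lower. KO2 and labelled KO2 rescue were at 0 in all 4 libraries. Replicates differed as much as groups, and no difference between groups was detectable at this depth.

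Per kilobase of representative transcript, the members ranked differently by condition. In KO2 AQP9 was at 339 normalized counts per kilobase, against 6.48 for AQP1, 4.77 for AQP11, 1.37 for AQP7 and 0 for AQP3. In WT + TGF-β AQP1 led with 159.7 per kilobase, followed by AQP11 at 14.2 and AQP9 at 2.15. In WT the levels per kilobase were 23.3 for AQP1 (the mean of 2 replicates far apart), 13.2 for AQP11, 3.07 for AQP3, 0.634 for AQP9 and 0 for AQP7. AQP9 was thus the leading aquaporin transcript of the knockouts and among the lowest of WT.

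The other 9 aquaporin genes were at or near 0. AQP2, AQP5, AQP10, AQP12A and AQP12B were listed at 0 in all 22 libraries, and AQP8 did not exceed 1.91. AQP6, an anion-permeable intracellular channel, ranged from 0 to 11.7, AQP4 from 0 to 6.41 and MIP, the lens aquaporin, from 0 to 5.35. None passed the filter, so 0 of 9 were tested.

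The genes whose group means were most like those of a member are given as a description over 11 groups. For AQP9 they were H2BC5 (Pearson r = 0.990), UBE2D3 (0.982) and H3C6 (0.978) on log2(normalized count + 1). H2BC5, a histone H2B gene, had means of 32.2 in WT, 168 in KO1 and KO2, 78.8 in labelled KO2 rescue and 26.4 and 29.2 in the rescue clones. H3C6, a histone H3 gene, had means of 71.1 in WT, 391 in KO1, 374 in KO2, 178 in labelled KO2 rescue and 73.0 and 77.2 in the rescue clones. Both belong to families of near-identical copies, so their counts are uncertain. UBE2D3, a ubiquitin-conjugating enzyme, varied far less, from 3910 in WT to 6291 in KO1. The groups share libraries and scaling, and r is high for any gene that separates these 3 groups from the rest.

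AQP1 was most like ARFGAP1 (r = 0.972), PLXNA4 (0.964) and STEAP3 (0.951). PLXNA4, a semaphorin receptor, was at a mean of 73.2 in WT and 492 in WT + TGF-β, with 5.44 in KO1 and 18.6 in KO2. AQP11 was most like TCF3 (r = 0.957), SLC38A10 (0.934) and CYB5RL (0.918). SLC38A10, an amino acid transporter, was at 376 in WT, 141 in KO1, 151 in KO2 and 433 and 373 in the rescue clones.

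Genes that handle glycerol, the solute AQP9 passes besides water, were examined as a list of 14, of which 11 were tested. The list was drawn up with earlier results of these data known, so its p-values are a description. Against WT, 3 rose and 1 fell in KO1 (median log2 difference 0.87), and 4 rose and 1 fell in KO2 (median -0.16), where the median of all tested genes was 0.00 in both. The share of all tested genes called was 25% in KO1 and 16.3% in KO2. GK, the glycerol kinase that traps glycerol in the cell, was at 1132 and 1271 normalized counts in KO1 and at 1010 and 747 in KO2. The other 18 libraries were at 52.0 to 182, so the groups did not overlap. Its intronless copy GK3 is not on this list, so its level is not given here. The rise of GK over WT was 3.14 ± 0.25 on the log2 scale in KO1 (limma, adjusted p = 1.35e-07) and 2.68 ± 0.25 in KO2 (adjusted p = 1.32e-06). Relative to KO2, GK was lower in the rescue clones (log2 difference -3.57 ± 0.22, limma adjusted p = 1.19e-08) and in labelled KO2 rescue, at 149 and 156 (-2.51 ± 0.25, adjusted p = 1.06e-05). Unlike AQP9, which labelled KO2 rescue held above every WT library, GK there was within the WT range of 116 to 157.

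Among the lipases of the list, MGLL and PNPLA2 rose in both knockouts and LPL in KO2. MGLL, which cleaves monoglycerides, was at 24778 and 26642 in KO1 and at 16810 and 14702 in KO2, where WT was at 3437 and 4858. Its log2 difference was 2.65 ± 0.12 in KO1 and 1.94 ± 0.12 in KO2 (limma, adjusted p = 2.01e-10 and 1.19e-08), and it fell with TGF-β (-1.03 ± 0.12, adjusted p = 2.99e-05, not past the rule without WT replicate 2 or WT + TGF-β replicate 2). PNPLA2, adipose triglyceride lipase, was at 1527 and 2294 in KO1 and at 1253 and 1382 in KO2, where WT was at 537 and 468 (limma, adjusted p = 0.00064 for KO1 and 0.00865 for KO2, the latter lost without WT replicate 2 or KO2 replicate 2). LPL, lipoprotein lipase, was at 26.9 and 26.4 in KO2 and at 4.69 and 0.602 in WT, a log2 difference of 3.19 ± 0.78 (limma, adjusted p = 0.00567, lost without WT replicate 2). In KO1 LPL was at 7.38 and 12.3 and was not called. LIPE, hormone-sensitive lipase, was at 9.01 and 0 in KO1 and at 4.73 and 0 in KO2 against 13.9 and 17.1 in WT, and was not called in either (limma, adjusted p = 0.182 and 0.146).

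Relative to KO2, the rescue clones were lower in 4 of these 11 genes and higher in 0, beside 17.5% of all tested genes called (median 0.60 for the list, -0.03 for all genes). Besides GK these were PNPLA2 (-2.58 ± 0.31, limma adjusted p = 1.37e-05), LPL (-4.04 ± 0.67, adjusted p = 0.000262) and MGLL (-1.30 ± 0.10, adjusted p = 1.97e-07). Serum differed in this comparison and cannot be told apart from rescue. In KO2 PGP, a glycerol-3-phosphate phosphatase, fell by 1.02 on the log2 scale (limma, adjusted p = 0.000105, not past the rule without WT replicate 2). In KO1 GPD1L, a glycerol-3-phosphate dehydrogenase relative, fell by 1.22 (limma, adjusted p = 2.57e-05).

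**Figure D3:**
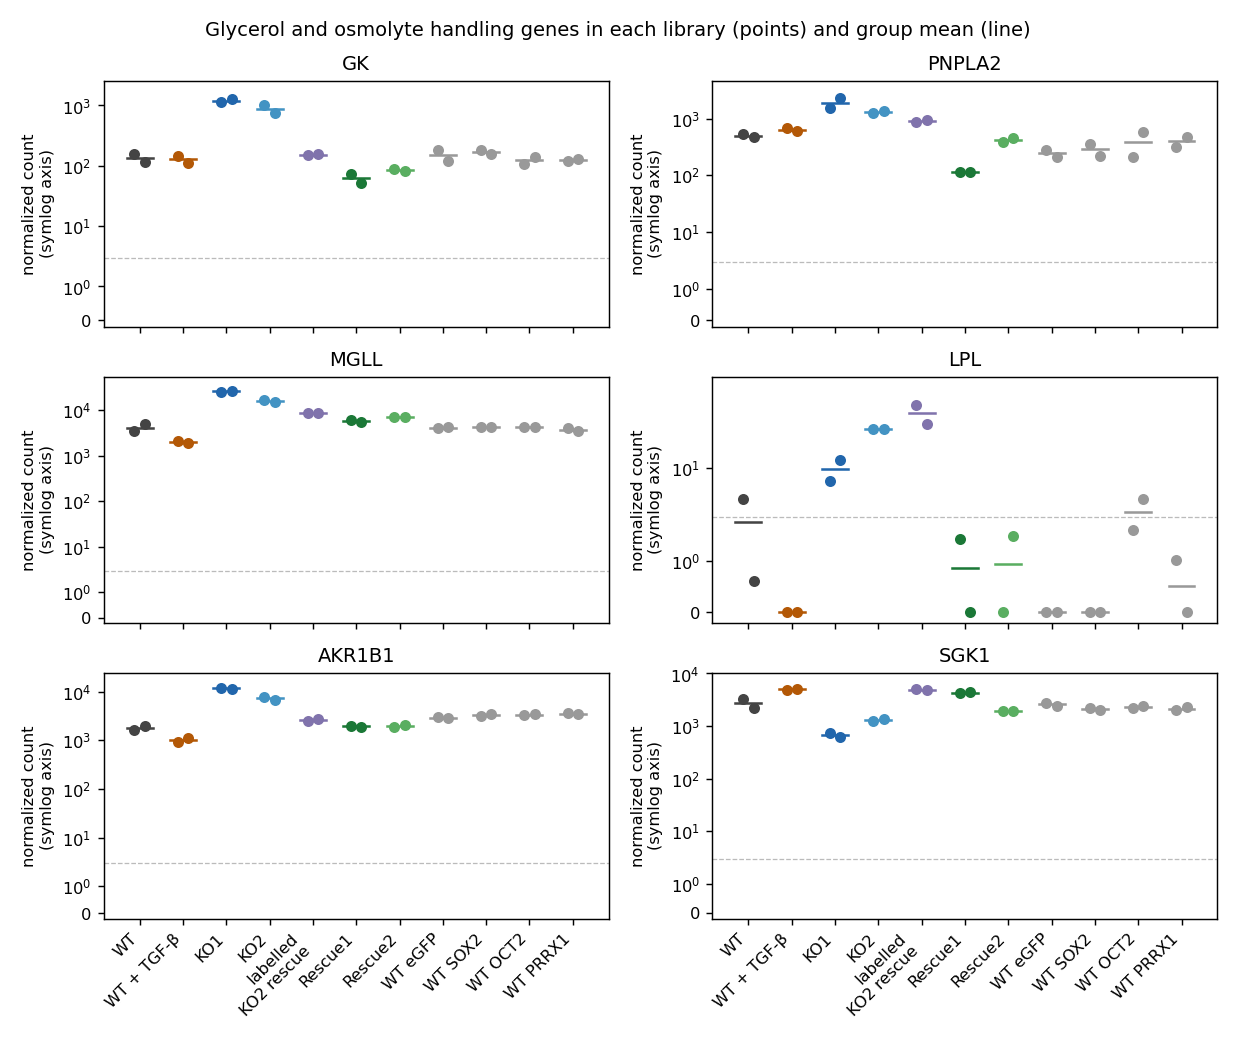
Normalized counts (symlog axis, linear below 1) of 6 genes of glycerol and osmolyte handling in the 2 libraries of each group; points are libraries, short lines are group means, and the dashed line marks 3 counts. GK is at 747 to 1271 in KO1 and KO2 and at 182 or lower elsewhere, MGLL and AKR1B1 are highest and SGK1 lowest in KO1, and LPL is highest in labelled KO2 rescue.

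Genes of osmolyte and urea handling, 11 of which had a value and were tested, moved in both directions. Against WT, 1 rose and 2 fell in KO1 (median -0.87), and 1 rose and 1 fell in KO2 (median 0.17), which is near the shares of 25% and 16.3% over all tested genes. AKR1B1, aldose reductase, which makes sorbitol, was at 12011 and 11178 in KO1, at 7625 and 6826 in KO2 and at 1586 and 1992 in WT. It rose by 2.70 ± 0.11 in KO1 and 2.02 ± 0.11 in KO2 (limma, adjusted p = 9.6e-11 and 5.14e-09) and was lower in the rescue clones than in KO2 (-1.89 ± 0.10, adjusted p = 2.13e-09). In that last comparison serum also differed. SGK1, a kinase that controls sodium transport, moved the other way, at 729 and 607 in KO1 and 1229 and 1337 in KO2 against 3229 and 2168 in WT. Its difference was -1.99 ± 0.14 in KO1 and -1.05 ± 0.14 in KO2 (limma, adjusted p = 3.19e-08 and 4.58e-05), and the call in KO2 was lost without WT replicate 1 or KO2 replicate 1. TRPV4, an osmosensitive channel, was at 6.92 and 0 in KO1 and at 27.9 and 32.2 in WT (-3.46 ± 0.74, limma adjusted p = 0.00161). In KO2 TRPV4 was at 90.1 and 53.4, above both WT libraries, and was not called, so the fall was seen in KO1 only.

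Rescue against KO2 called 5 of these 11 osmolyte genes, beside 17.5% of all tested genes. Serum differed in this comparison too and cannot be told apart from rescue. SGK1 was at 4236 and 4366 in Rescue1 but at 1898 and 1953 in Rescue2. The mean of the rescue clones was higher in SGK1 by 1.17 ± 0.12, and in NFAT5, the tonicity-responsive transcription factor, by 3.78 ± 1.11 (limma, adjusted p = 3.35e-06 and 0.016, the NFAT5 call lost without KO2 replicate 1). AKR1B1 was lower, as were SLC6A12, a betaine carrier (-3.13 ± 0.73, limma adjusted p = 0.00358, lost without KO2 replicate 2) and TRPV4 (-1.92 ± 0.64, adjusted p = 0.0302, lost without either KO2 library, Rescue1 replicate 1 or Rescue2 replicate 2). SLC6A12 did not exceed 11.9 counts in any library. The KO2 replicates of NFAT5 lay far apart, at 3.53 and 271.

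TGF-β, under which AQP1 was highest, called 3 of these 11 osmolyte genes, beside 7.84% of all tested genes. LRRC8A, a subunit of the volume-regulated anion channel, rose by 1.09 ± 0.10 (limma, adjusted p = 2.85e-06). SLC6A6, the taurine carrier, fell by 1.58 on the log2 scale (limma, adjusted p = 5.1e-08), and SLC14A2, a urea transporter, fell by 2.90 (adjusted p = 0.0458, a call lost in 14 of 22 fits with 1 library left out). With only the WT and WT + TGF-β libraries in the fit, none of the 3 was called.

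Of 5 tested markers of other parts of the nephron, where AQP2 and AQP3 belong, SCNN1A, SLC12A3 and CA2 fell under TGF-β, beside 7.84% of all tested genes called. CALB1 and GATA3 were not called, with log2 differences of -0.65 ± 0.41 and 0.56 ± 1.52. With only the WT and WT + TGF-β libraries in the fit, none of the 5 was called. In KO1, SLC12A3 and SCNN1A fell and CALB1 rose, and in KO2 SCNN1A fell. Of the proximal tubule markers, ANPEP, CUBN, MME and PAX8 rose and SLC4A4 fell in KO1, and ANPEP, CUBN and MME rose in KO2. AQP1, the water channel of that segment, gave no direction in the same comparisons.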

How the data were processed

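RNA was sequenced from 22 RPTEC libraries (TruSeq Stranded mRNA). Per the submitters' processing notes, the authors used Salmon 1.9.0 and DESeq2 1.26.0 on GRCh38, with Ensembl release 94 cDNA, and deposited log2 values for 36859 genes. The transformation is not given in the sources used here. All libraries share a lowest value of 11.32, and the values were read as variance-stabilized and inverted to normalized counts. Values near 0 did not fall on whole reads closely enough for a count test, so the planned test on logs was used.

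Symbols came from GENCODE release 44 (33878 genes). limma 3.58.1 (R 4.3.3, variance trend) was fitted to log2(normalized count + 1) of all 22 libraries, with 1 mean for each group and without covariates, for 14585 genes with at least 10 counts in 2 libraries. Benjamini-Hochberg adjustment ran over all tested genes of each of 12 comparisons. The fit was tested on simulated data. Members and gene lists were chosen with earlier results of these data known. Genes named are the 5 members, other aquaporins above 3 counts, glycerol and osmolyte genes called for KO1, KO2, TGF-β or rescue, the called or highest markers, and the 3 genes most like each tested member. A few markers are not reported here. Python 3.11.15 with pandas 2.3.3, numpy 2.4.6, matplotlib 3.10.9 and scipy 1.17.1 handled values and plots, and R used its package data.table (version 1.17.8).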

Additional observations from a re-analysis of the deposited data

Results flagged for a closer look

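3 genes of water, glycerol and osmolyte handling differed between the knockout clones by the direct test of KO1 against KO2 (limma, Benjamini-Hochberg over all genes). TRPV4 differed by -4.65 ± 0.74 on the log2 scale (adjusted p = 0.00056), at 6.92 and 0 normalized counts in KO1 against 90.1 and 53.4 in KO2. SLC6A12 differed by -2.78 ± 0.84 (limma, adjusted p = 0.0355), at 0.623 and 0 against 4.96 and 11.9. GPD1L differed by -1.06 ± 0.16 (limma, adjusted p = 0.000444), at 115 and 101 against 224 and 227. All 3 were lower in KO1. Each knockout is 1 clone, so clone and genotype cannot be told apart here.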

How the results depend on the processing

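No called value of a member or a named related gene turned direction in any alternative. AQP9 met the call rule against WT in KO1 and KO2 in all fits but that of the deposited log2 values, whose floor of 11.32 compresses low levels (0.71 and 0.85 there), and a pseudocount of 5 lowered these differences to 6.69 and 7.21. The number of members called was 1 for TGF-β with a pseudocount of 5. For KO1 against WT it was 2 with a pseudocount of 5, with no filter and with the same total for every library, and 0 on the deposited values. For KO2 against WT it was 1 with no filter, with a mean of at least 50 counts and with only the groups compared, and 0 on the deposited values. For the knockouts against TGF-β it was 0 on the deposited values, and 2 (without AQP11) with a mean of at least 50 and with only the groups compared. For rescue against KO2 it was 1 with a mean of at least 50 and with only the groups compared, and 0 on the deposited values. For labelled KO2 rescue against KO2 it was 2 with a pseudocount of 5 and 0 with no filter, with a mean of at least 50 and on the deposited values. A mean of at least 50 leaves AQP11 untested; otherwise the cause was not tested. With 1 library left out the number of members called ranged from 0 to 1 for TGF-β (1 without WT replicate 1 or either PRRX1 library), 1 to 2 for KO1, 1 to 2 for KO2, 2 to 3 for the knockouts against TGF-β, 1 to 2 for rescue, 0 to 2 for labelled KO2 rescue and 0 to 1 for eGFP against WT (1 without WT replicate 2). Of 45 related genes and markers tested, 8 were called for TGF-β, 19 for KO1, 14 for KO2 and 16 for rescue against KO2. On the deposited values these were 0, 3, 2 and 0, with only the groups compared 0 for TGF-β, 9 for KO1 and 9 for KO2, and with a mean of at least 50 the rescue count was 10. With 1 library left out they ranged from 3 (without WT replicate 2) to 10 for TGF-β, 18 to 21 for KO1, 10 to 15 for KO2 and 14 to 18 for rescue. The SETD2 difference in KO1 and KO2 was -1.25 and -1.12 with the same total for every library, and -0.92 to -0.77 and -0.97 to -0.82 with 1 library left out. Replicate numbers did not pair the libraries (correlations of deviations between -0.08 and 0.05 over 55 pairs of groups, 0 above 0.1). With the replicate number as a block, 0 members were called for TGF-β, 1 for KO1, 2 for KO2, 3 for the knockouts against TGF-β and 2 for rescue, the counts found without it. Of 831 alternative values of 27 named related gene calls, 763 kept the call, 68 lost it and 0 turned direction. The estimated depth of about 7700000 to 18800000 reads leaves AQP3 and AQP7 at or below 11.2 counts.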
